A study of Mus musculus with 24 samples.

Results

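The genes described here are 10 enzymes and helpers that modify procollagen chains and trim them outside the cell: the prolyl 4-hydroxylase catalytic subunits P4ha1, P4ha2 and P4ha3, the lysyl hydroxylases Plod1, Plod2 and Plod3, the procollagen C-proteinase Bmp1, its enhancers Pcolce and Pcolce2, and Crtap, a subunit of the prolyl 3-hydroxylation complex. They were listed by symbol, with earlier results of these data known, and all 10 were found among the 18368 genes of the expression table. The values come from RNA sequencing of whole skin of CD1 mice, an outbred strain, aged 7 weeks and matched for the resting (telogen) phase of the hair cycle. Abdomen, back and cheek skin was compared, each in 4 mice that were wounded at that site only, so that 12 mice gave 24 libraries in 6 groups. From every mouse there was 1 library of a punch of the wound, taken 3 days after a 2 mm excision, and 1 of adjacent healthy skin, called unwounded here; cheeks received a single wound and abdomens and backs a pair of them. All mice had anaesthesia and an analgesic and were shaved at wounding, no transgene or test drug is named for any group, and the skin next to a wound stands in for untouched skin in all of the unwounded groups.

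Collagen chains are hydroxylated while they are still unfolded in the endoplasmic reticulum. Prolyl 4-hydroxylation, by a tetramer of P4ha catalytic subunits with P4hb, makes the triple helix stable at body temperature; lysyl hydroxylation, by the Plod enzymes, provides the sites for sugar addition and for the stronger class of cross-links, and Plod2 acts on the telopeptides at the chain ends that enter those cross-links. After secretion the propeptides are removed, the C-propeptide by Bmp1 with the help of Pcolce or Pcolce2, and fibrils can then assemble. Fibroblasts are the main source of these messages in skin, and P4ha1, P4ha2, Plod1 and Plod2 are known to respond to low oxygen in many cells.

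Levels are FPKM (fragments scaled to transcript length and to the library total), which are corrected for gene length and so can be set side by side between genes. All differences below are in log2(FPKM + 0.5), with the standard error (SE) or a 95% interval and the adjusted p-value of limma; since 0.5 is added, they understate changes of genes near 0. A wound effect was called at an adjusted p under 0.001, the study's own threshold, from a fit of the 24 libraries with a term for each mouse, and a difference between sites at an adjusted p under 0.05, from the 12 unwounded or the 12 wound libraries. The summed FPKM of a library lay between 490830 and 608888. The sums of back wounds (555932 to 584822) lay wholly above those of unwounded back skin (519018 to 548455). In abdomen and cheek the sums of wounds and unwounded skin overlapped. The number of reads behind a value is unknown from these files, so no counting interval is given. Fewer cells of a type and less RNA per cell cannot be told apart in whole tissue.

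The promoters of some members that changed are shown here. The hypoxia-inducible factors bind the core letters ACGTG or GCGTG, and genes that moved together can be compared for them. Of the 10 members, 8 have a window of 250 bases before to 50 after the gene start in RefSeq (build GRCm38.p6). Plod2 and Bmp1 have none. Either core, on either strand, was in 6 of these 8 windows, against 43.8% of all 32851 promoter windows. ACGTG was in 3 of the 8 (19.6% of all windows) and GCGTG in 6 (32.4%). The CCAAT box, also read on both strands and overlapping neither core, was in 1 of the 8, that of Plod3 (37.4%). Printed are the bases upstream of the annotated gene, 5′ to 3′ along the gene's own strand, for P4ha1 and Plod3, which rose together, and for P4ha3 and Pcolce2, which moved furthest up and down among these 8. Capitals mark either hypoxia core or its reverse complement.
P4ha1, chr10:59323046-59323196 (+ strand): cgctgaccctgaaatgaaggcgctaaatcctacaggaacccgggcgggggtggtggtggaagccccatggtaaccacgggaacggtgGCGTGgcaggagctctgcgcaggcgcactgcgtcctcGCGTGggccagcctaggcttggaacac
Plod3, chr5:136986769-136987018 (+ strand): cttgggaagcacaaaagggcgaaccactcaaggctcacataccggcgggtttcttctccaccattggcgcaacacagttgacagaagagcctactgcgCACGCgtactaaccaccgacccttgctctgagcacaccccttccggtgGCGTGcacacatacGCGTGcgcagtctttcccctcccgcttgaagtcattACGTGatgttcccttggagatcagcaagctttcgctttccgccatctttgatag
P4ha3, chr7:100285270-100285488 (+ strand): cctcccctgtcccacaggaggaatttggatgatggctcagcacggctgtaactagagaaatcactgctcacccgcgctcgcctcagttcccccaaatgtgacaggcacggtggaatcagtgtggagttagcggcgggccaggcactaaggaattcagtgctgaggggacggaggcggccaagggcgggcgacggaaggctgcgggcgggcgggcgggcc
Pcolce2, chr9:95637378-95637627 (+ strand): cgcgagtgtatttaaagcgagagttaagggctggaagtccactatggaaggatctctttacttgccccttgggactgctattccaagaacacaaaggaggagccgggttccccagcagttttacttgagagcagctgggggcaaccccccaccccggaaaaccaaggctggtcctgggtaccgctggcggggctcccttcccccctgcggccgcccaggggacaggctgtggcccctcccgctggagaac
These stretches hold 2 cores for P4ha1, 4 for Plod3 and none for P4ha3 or Pcolce2. The upstream stretches not printed held 3 cores for P4ha2, 3 for Crtap, 1 for Plod1 and 0 for Pcolce. The full windows, which run past the gene start, held 3 for P4ha1, 4 for Plod3, 4 for P4ha2, 3 for Crtap, 2 for Plod1 and 1 for Pcolce. In the averaged wound effect below, Plod1 was called, while P4ha2, Crtap and Pcolce were not. The letters describe the sequence only, and no binding was measured.

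In unwounded skin the 10 genes spanned more than 3 orders of magnitude. Pcolce was the most abundant, with 206 to 541 FPKM over the 12 libraries, and Pcolce2 followed with 47.9 to 133 FPKM. Bmp1 (39.3 to 75.9), Crtap (45.9 to 66.1), Plod1 (21.8 to 37.2), P4ha2 (16.8 to 30.8), Plod3 (15.7 to 21.5) and P4ha1 (14.3 to 19.9) formed a middle group. Plod2 lay between 0.59 and 2.16 FPKM and P4ha3 between 0 and 0.28 FPKM, so each hydroxylase family had a member close to 0 in healthy skin. In the order of the medians, neighbours overlapped in range except Pcolce and Pcolce2, Bmp1 and Plod1, P4ha1 and Plod2, and Plod2 and P4ha3.

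**Figure D1:**
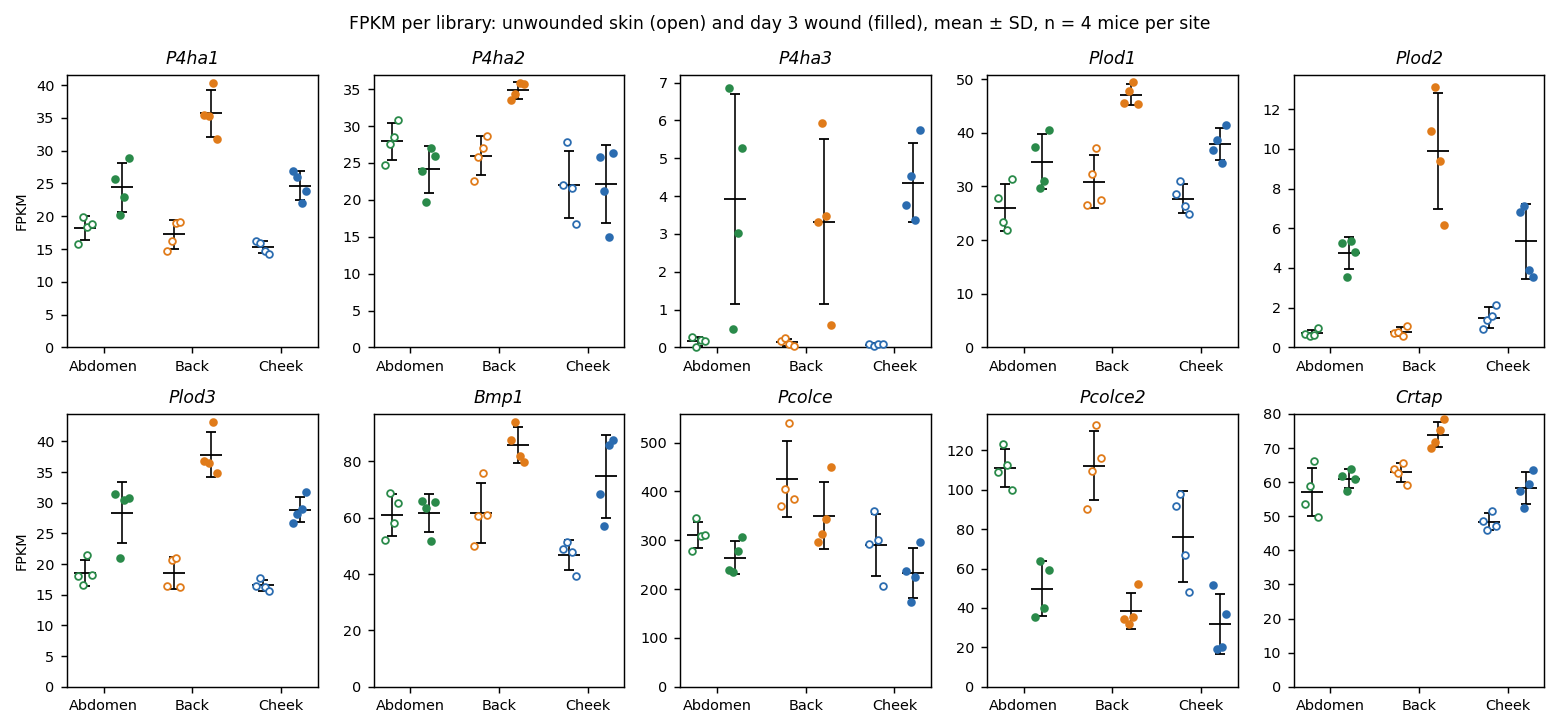
FPKM (y axis, from 0) of each of the 10 genes in unwounded skin (open points) and day 3 wounds (filled points) of abdomen, back and cheek (x axis), 1 point per library with the mean ± SD of 4 mice. Plod2 and P4ha3 sit near the axis in all 12 unwounded libraries, at no more than 2.16 and 0.28 FPKM, while Pcolce2 is lower in the wound of all 12 mice.

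Wounding raised 5 of the 6 hydroxylase genes and lowered Pcolce2 when the effect was averaged over the 3 sites. P4ha3 rose by 2.60 ± 0.21 (SE, adjusted p = 6.68e-07), Plod2 by 2.199 ± 0.16 (1.83e-07), Plod3 by 0.79 ± 0.05 (6.92e-08), P4ha1 by 0.70 ± 0.06 (1.01e-06) and Plod1 by 0.49 ± 0.05 (2.29e-06), each in 12 of 12 mice. Pcolce2 fell by 1.35 on the log2 scale (SE 0.15, adjusted p = 1.57e-05), also in 12 of 12 mice. The exact sign-flip test over the 12 mice, which borrows nothing from other genes, gave p = 0.000488 for each of these 6, the smallest it can give. P4ha3 met the filter of 0.5 FPKM in at least 4 libraries only through its wounds (0.50 to 6.87 FPKM). Its unwounded libraries held 0.28 FPKM or less, and at that level a gene is tested only where wounds are higher. With no filter on low values P4ha3 was called as well. Of all 14423 genes tested, 33.4% passed the same threshold, 19.1% higher and 14.4% lower, so the 6 of 10 members called stand against a background in which many genes changed. The median difference over the members was 0.44, beside 0.02 over all genes tested. Bmp1 (0.38 ± 0.09, adjusted p = 0.00176, higher in 10 of 12 mice) and Crtap (0.20 ± 0.05, adjusted p = 0.00192, higher in 10 of 12) did not pass 0.001, and neither did Pcolce (-0.28 ± 0.12, adjusted p = 0.0524) or P4ha2 (0.07 ± 0.09, adjusted p = 0.511, higher in 6 of 12).

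P4ha3 had the steepest wound effect of the prolyl 4-hydroxylase subunits. In abdomen skin its level was 0.28, 0, 0.21 and 0.18 FPKM in mice 1 to 4 and in their wounds 6.87, 0.50, 3.03 and 5.28 FPKM. Back skin gave 0.18, 0.24, 0.10 and 0.03 FPKM and back wounds 3.32, 5.93, 3.47 and 0.59 FPKM. Cheek skin gave 0.08, 0.03, 0.10 and 0.10 FPKM and cheek wounds 3.76, 4.54, 3.37 and 5.75 FPKM. The wound and unwounded groups did not overlap at any site, but abdomen mouse 2 and back mouse 4 stayed far below the other wounds, at 0.50 and 0.59 FPKM. All 3 effects were called, at 2.41 ± 0.36 in abdomen (adjusted p = 0.000544), 2.34 ± 0.36 for the back (0.00031) and 3.05 ± 0.36 for the cheek (6.71e-05). The abdomen call was lost without abdomen mouse 1, 3 or 4, back mouse 1 or 3, or cheek mouse 1 (adjusted p up to 0.00453). The back call was lost without back mouse 1, 2 or 3 (up to 0.00289). The abdomen call was also lost in the 8 abdomen libraries alone (0.0122), with 1 FPKM added in place of 0.5 and without the mouse terms. The back call was also lost with 1 FPKM added (0.00115) and in the 8 back libraries alone.

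P4ha1, whose protein forms the most widely used prolyl 4-hydroxylase tetramer, rose more modestly from a higher base. Abdomen skin held 15.7, 19.9, 18.4 and 18.8 FPKM and the wounds of the same mice 25.7, 20.2, 23.0 and 28.8 FPKM. Back skin held 14.7, 16.3, 19.0 and 19.2 FPKM and back wounds 35.4, 35.3, 40.3 and 31.7 FPKM. Cheek skin held 16.2, 15.96, 14.7 and 14.3 FPKM and cheek wounds 26.9, 26.01, 21.96 and 23.9 FPKM. Every wound lay above every unwounded library of its site, with the narrowest margin in abdomen. The effect was called in back (1.03 ± 0.11, adjusted p = 1.44e-05) and cheek (0.67 ± 0.11, 0.000503) and missed the threshold in abdomen (0.41 ± 0.11, 0.0124). The cheek call was lost without any 1 of cheek mice 1 to 4 or back mouse 3 (adjusted p up to 0.00351), under a common library sum and in the 8 cheek libraries alone (0.00206).

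P4ha2, the other broadly expressed subunit, was not called at any site. Its 4 back wounds (33.5 to 35.8 FPKM) all lay above back skin (22.6 to 28.7), with a difference of 0.42 ± 0.15 (adjusted p = 0.0362). Abdomen skin (24.7 to 30.8) and wounds (19.8 to 27.0) overlapped, the value being lower in the wound of all 4 mice (-0.21 ± 0.15, adjusted p = 0.303). Cheek skin ranged from 16.8 to 27.9 FPKM and cheek wounds from 15.0 to 26.4 (-0.01 ± 0.15, adjusted p = 0.979). P4ha3 thereby took 0.37%, 0.33% and 0.22% of the summed P4ha FPKM in unwounded abdomen, back and cheek and 6.98%, 4.42% and 8.51% in the wounds, higher in 12 of 12 mice, so that P4ha1 and P4ha2 still made up most of the family message.

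Plod2, the telopeptide lysyl hydroxylase, changed most among the Plod genes. Abdomen skin held 0.67, 0.59, 0.63 and 0.99 FPKM and abdomen wounds 5.28, 3.56, 5.35 and 4.83 FPKM. Back skin held 0.73, 0.76, 0.60 and 1.10 FPKM and back wounds 10.9, 13.1, 9.39 and 6.17 FPKM. Cheek skin held 0.92, 1.36, 1.56 and 2.16 FPKM and cheek wounds 6.80, 7.10, 3.92 and 3.54 FPKM. The groups did not overlap at any site, and the cheek started from the highest unwounded levels. The effect was called in abdomen (2.10 ± 0.27, adjusted p = 0.000174) and back (2.97 ± 0.27, 5.77e-06) and lay just past the threshold in cheek (1.52 ± 0.27, 0.00106). The abdomen call was lost without abdomen mouse 1, 3 or 4 (adjusted p up to 0.00184), and the cheek effect passed without back mouse 4 or cheek mouse 4 (as low as 0.000424).

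Plod3, which also carries collagen glycosyltransferase activity, was called at all 3 sites. Its level was 16.5 to 21.5 FPKM in abdomen skin against 31.5, 20.9, 30.4 and 30.8 FPKM in the wounds, where mouse 2 alone lay within the unwounded range. Back went from 16.3 to 21.0 FPKM up to 34.8 to 43.1, and cheek from 15.7 to 17.7 FPKM up to 26.8 to 31.7, with no overlap. The effects were 0.59 ± 0.09 (adjusted p = 0.000529), 1.01 ± 0.09 (4.01e-06) and 0.79 ± 0.09 (3.97e-05) in abdomen, back and cheek. The abdomen call was lost without abdomen mouse 1, 3 or 4 or back mouse 3 (adjusted p up to 0.00455) and in 6 of 10 other alternatives (up to 0.00995, in the 8 abdomen libraries alone), and the cheek call in the 8 cheek libraries alone (0.00212).

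Plod1, the enzyme of helical lysines, was called in back, and the test of a difference between the 3 wound effects gave an adjusted p of 0.551. Back skin held 26.6 to 37.2 FPKM and back wounds 45.4 to 49.5 (0.61 ± 0.08, adjusted p = 9.46e-05, and 0.00117 after quantile normalization). Abdomen skin (21.8 to 31.4) and wounds (29.8 to 40.5) overlapped, with every mouse higher in its wound (0.41 ± 0.08, 0.00305). Cheek skin (24.8 to 31.0) and wounds (34.5 to 41.5) did not overlap (0.44 ± 0.08, 0.00131). Since the 3 genes moved unequally, Plod2 made up 1.57%, 1.64% and 3.33% of the summed Plod FPKM in unwounded abdomen, back and cheek and 7.02%, 10.4% and 7.43% in the wounds, higher in 11 of 12 mice; the exception was cheek mouse 4.

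**Figure D2:**
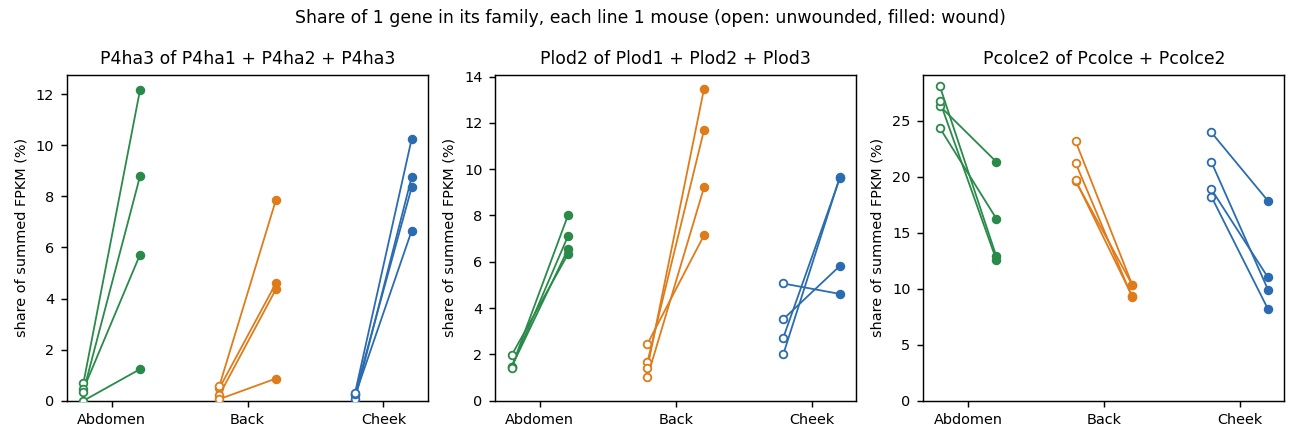
Share (y axis, % of the summed FPKM of the family) of P4ha3, Plod2 and Pcolce2 in unwounded skin (open) and wound (filled) at the 3 sites (x axis), each line joining the 2 libraries of 1 mouse. The P4ha3 share was higher in the wound of 12 of 12 mice and the Plod2 share in 11 of 12, while the Pcolce2 share was lower in the wound of all 12.

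Bmp1, the proteinase that removes the C-propeptide, was not called at any site. Its abdomen levels overlapped between skin (52.1 to 68.7 FPKM) and wounds (51.9 to 65.9), with a difference of 0.02 (95% interval -0.30 to 0.34). Back wounds (79.9 to 94.1) all lay above back skin (49.9 to 75.9), at 0.48 ± 0.15 (adjusted p = 0.0184). Cheek wounds (57.0 to 87.4) all lay above cheek skin (39.3 to 51.5), at 0.65 ± 0.15 (adjusted p = 0.00476).

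Of the C-proteinase enhancers, Pcolce2 was lower in wounds. Pcolce2 held 109, 123, 113 and 100 FPKM in abdomen skin and 35.5, 63.6, 40.0 and 59.5 in the wounds of the same mice. Back skin held 90.3, 109, 133 and 116 FPKM and back wounds 34.3, 31.9, 35.5 and 52.1. Cheek skin held 92.0, 97.9, 67.1 and 47.9 FPKM and cheek wounds 51.5, 19.2, 20.0 and 36.7. Skin and wounds were separate in abdomen and back and overlapped in cheek, where unwounded mouse 4 was below wounded mouse 1. The fall was called in back (-1.55 ± 0.27, adjusted p = 0.000754) and not in abdomen (-1.20 ± 0.27, 0.00605) or cheek (-1.31 ± 0.27, 0.00288). The back call did not survive the removal of any of 10 of the 12 mice, with adjusted p up to 0.0059 (without back mouse 2), and held only without cheek mouse 2 or 4; the cheek value passed without cheek mouse 4 (0.000851).

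Pcolce, the more abundant enhancer, was 278 to 345 FPKM in abdomen skin and 235 to 306 in its wounds, 370 to 541 and 296 to 450 in back, and 206 to 361 and 174 to 297 in cheek. All of these ranges overlapped, and the differences of -0.24, -0.28 and -0.31 had adjusted p of 0.386, 0.271 and 0.241. Pcolce2 therefore made up 26.4%, 20.9% and 20.6% of the summed enhancer FPKM in unwounded abdomen, back and cheek and 15.8%, 9.84% and 11.7% in wounds, lower in 12 of 12 mice. Crtap, which holds the prolyl 3-hydroxylase P3h1 in its complex, had small differences, of 0.10 ± 0.08 for abdomen (adjusted p = 0.332), 0.23 ± 0.08 for back (0.0283) and 0.26 ± 0.08 for cheek (0.0193). Its back wounds (70.1 to 78.4 FPKM) and cheek wounds (52.3 to 63.5) lay above the unwounded libraries of the same site (59.1 to 65.6 and 45.9 to 51.7), while abdomen wounds (57.3 to 63.8) overlapped with skin (49.8 to 66.1).

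Counted by site, 3 members were called in abdomen (all higher), 6 in back (5 higher and 1 lower) and 3 in cheek (all higher). Of all genes, 4.96% were called in abdomen (3.92% higher and 1.04% lower), 14.4% in back (10% and 4.37%) and 8.69% in cheek (6.5% and 2.19%). At the looser threshold of 0.05 the counts were 6, 9 and 8 of 10, beside 32.9%, 45.9% and 36.6% of all genes. All 4 wounds lay above all 4 unwounded libraries of the site for 3, 8 and 7 members in the same order (13.4%, 25% and 16.7% of genes), and below them for 1, 1 and 0 (11%, 15.4% and 15%). The counts at 0.05 depended on the scaling. After quantile normalization the back effects of Bmp1, P4ha2 and Crtap had adjusted p of 0.105, 0.159 and 0.383. Under a common library sum the abdomen effect of P4ha1 had 0.0664.

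**Figure D3:**
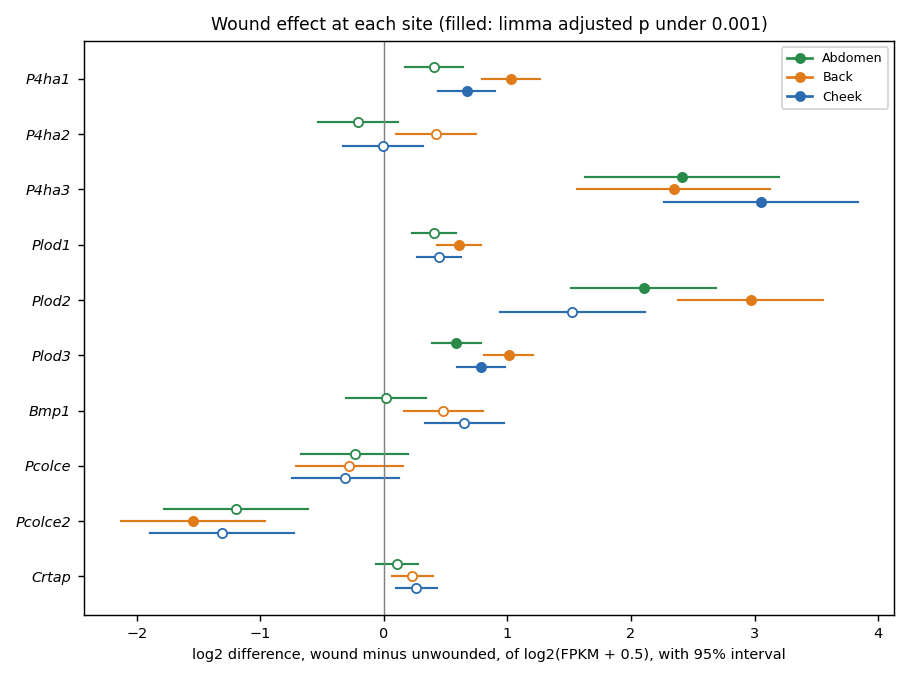
Wound effect at each site (x axis, difference of log2(FPKM + 0.5), wound minus unwounded, with the 95% interval) for the 10 genes (y axis); filled points passed an adjusted p of 0.001. P4ha3 and Plod2 lie furthest right, Pcolce2 lies left of 0 at all 3 sites, and the 3 intervals of a gene mostly overlap.

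The larger count in back does not show that the wound effects differed between sites. The F test of that difference called none of the 10 members at an adjusted p under 0.05, and 0.0208% of the 14423 genes; 1867 genes, 5 members among them, had an unadjusted p under 0.05. The lowest adjusted p of the members were 0.233 for P4ha1 and 0.251 for Plod2. The back effect exceeded the abdomen effect by 0.62 for P4ha1 (95% interval 0.29 to 0.95, adjusted p = 0.137) and by 0.63 for P4ha2 (0.17 to 1.09, 0.205). It did so by 0.42 for Plod3 (0.15 to 0.70, 0.175), 0.86 for Plod2 (0.04 to 1.69, 0.31) and 0.46 for Bmp1 (0.01 to 0.92, 0.318). For Plod1, Crtap, P4ha3, Pcolce and Pcolce2 the interval of back minus abdomen included 0. For Plod2 the cheek effect was below the back effect by 1.44 (interval of the difference -2.27 to -0.61, adjusted p = 0.397), and for Bmp1 the cheek effect was above the abdomen effect by 0.63 (0.18 to 1.09, 0.32).

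No tested member was called between sites in unwounded skin. P4ha3, at 0.28 FPKM or less in every unwounded library, did not meet the filter of at least 4 libraries at 0.5 FPKM. Of the other 9, none was called between back and abdomen, cheek and abdomen or cheek and back, where 2.67%, 2.57% and 1.05% of 13956 genes were. At an unadjusted p under 0.05 there were 1, 6 and 5 members, beside 3072, 2650 and 3008 of all the genes tested. Cheek skin had the lowest mean for 8 of the 10 genes, and back skin the highest for 6. Pcolce in back skin (370, 405, 541 and 385 FPKM) lay wholly above abdomen (278, 345, 308 and 310), at 0.44 ± 0.17 (adjusted p = 0.164), and wholly above cheek (292, 361, 301 and 206), where cheek minus back was -0.56 ± 0.17 (adjusted p = 0.121). Crtap was also separate between cheek and back skin (-0.38 ± 0.10, adjusted p = 0.0865), as were Bmp1 (-0.38 ± 0.14, 0.159) and Pcolce2 (-0.59 ± 0.20, 0.127) between cheek and abdomen. Such separation, of 1, 2 and 2 members in that direction, was seen for 2.59% of genes between back and abdomen, 4.49% between cheek and abdomen and 2.2% between cheek and back. Of the 9 genes tested, 7 had a negative difference between cheek and abdomen skin, and the others were Plod1 (0.10 ± 0.14, adjusted p = 0.746) and Plod2 (0.69 ± 0.20, 0.0864), both with overlapping libraries. The median difference over all genes was -0.12 between back and abdomen skin and 0.14 between cheek and back skin, and rescaling by median ratios, which sets both near 0, called Crtap between cheek and back (adjusted p = 0.0106).

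In the wounds the back stood above the other sites for most members. It had the highest mean for 8 of 10 genes, the exceptions being P4ha3 (cheek) and Pcolce2 (abdomen). All 4 back wounds lay above all 4 abdomen wounds for 7 of 10 members, P4ha1, P4ha2, Plod1, Plod2, Plod3, Bmp1 and Crtap, where 3.84% of the 14023 genes tested did. They lay above all 4 cheek wounds for 5 of 10, P4ha1, P4ha2, Plod1, Plod3 and Crtap, where 4.06% of genes did. The members share libraries and are not independent of each other. The exact permutation test of 4 against 4 gave each of these separate comparisons p = 0.0286, the smallest it can give.

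After adjustment over all genes, fewer of these differences passed. Between back and abdomen wounds P4ha1 (0.54 ± 0.11, adjusted p = 0.0419) and Plod1 (0.45 ± 0.10, 0.049) were called, 2 of 10 against 1.27% of genes (0.506% higher in back). The other 5 that were separate had differences of 0.28 to 0.95 with adjusted p from 0.075 to 0.11. Between cheek and back wounds P4ha1 (-0.52 ± 0.11, adjusted p = 0.04), P4ha2 (-0.68 ± 0.15, 0.0452) and Crtap (-0.34 ± 0.07, 0.0358) were called, 3 of 10 against 2.5% of genes (0.599% lower in cheek), all lower in cheek. Between cheek and abdomen wounds none was called, while 10.8% of genes were, 1 member of 10 having an unadjusted p under 0.05 beside 4427 of 14023 genes. These calls sat close to the threshold: P4ha1 and Plod1 between back and abdomen lost theirs when 8 and 10 of the 12 mice were left out in turn, with adjusted p up to 0.116 and 0.133 (both without back mouse 3). Between cheek and back P4ha1, P4ha2 and Crtap lost theirs for 7, 10 and 7 of these mice, with values up to 0.123 (without back mouse 3), 0.137 and 0.115 (both without back mouse 4). No difference changed its sign in them.

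**Figure D4:**
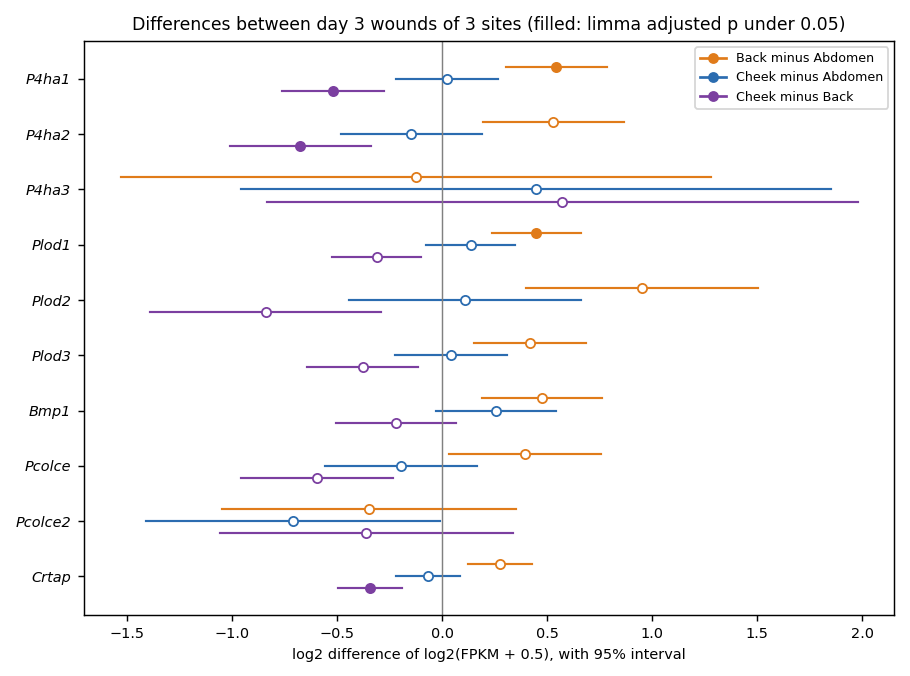
Differences between the day 3 wounds of pairs of sites (x axis, log2(FPKM + 0.5) with the 95% interval, 4 mice per site) for the 10 genes (y axis); filled points passed an adjusted p of 0.05. For 7 genes the back-minus-abdomen value lies to the right of 0 with separate libraries, and P4ha3 has the widest intervals.

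The values of other gene lists are given beside these differences, and their part in them was not tested. Over the back and abdomen wounds, all 12 genes of the hypoxia response list had a positive difference, from 0.16 to 0.82, of which 1 (Adm) was called. All 7 macrophage markers (0.28 to 1.43), 5 endothelial markers (0.16 to 0.26) and 4 wound keratinocyte markers (0.21 to 0.64) had one too, none of them called, as did 9 fibril-forming collagen chains (0.03 to 0.77), of which Col5a3 was called. Of 6 myofibroblast markers Cthrc1 was called (0.91). Summed, the 6 lay at 560 to 798 FPKM in abdomen wounds, 726 to 772 in back wounds and 707 to 849 in cheek wounds. These ranges overlap. The 8 fibroblast markers had differences from -0.24 to 1.47 with a median of -0.07, and none was called. Their summed FPKM was 2372 to 3240 in abdomen wounds and 2316 to 2893 in back wounds, ranges that overlap. Between cheek and back wounds, differences ran from -0.71 to 0.28 on the hypoxia response list, from -0.69 to 0.08 over the macrophage markers and from -0.42 to 0.34 over the fibroblast markers, with none called, while the myofibroblast marker Cthrc1 was called lower in cheek (-0.86).

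The other genes of the pathway divided in wounds. On the list of 12 other modification and folding genes, 5 rose and 1 fell in the averaged effect. P4hb, the shared subunit of the prolyl 4-hydroxylases, went from 221 to 360 FPKM on average (0.70 ± 0.05, adjusted p = 7.46e-08), and P3h1, the partner of Crtap, from 13.8 to 22.7 FPKM (0.69 ± 0.06, 1.16e-06). Fkbp10, a chaperone needed for telopeptide lysyl hydroxylation, rose by 0.72 ± 0.07 (2.77e-06), Colgalt1, which adds galactose to hydroxylysine, by 0.49 ± 0.05 (1.52e-06), and Ppib, the cyclophilin of the Crtap complex, by 0.35 ± 0.05 (8.93e-05). P3h2 fell by 0.41 on the log2 scale (adjusted p = 3.95e-05), and the collagen chaperone Serpinh1 did not pass (0.32 ± 0.08, 0.00293). The 4 partners P4hb, P3h1, Fkbp10 and Colgalt1 were higher in the wounds of 12 of 12 mice. Of 6 genes of procollagen export none passed 0.001. Among the other procollagen proteinases, Adamts14 rose (0.46 ± 0.09, 0.000722), Adamts2, the main N-proteinase of skin, had a difference of -0.59 ± 0.12 (0.00128, lower in 11 of 12 mice) and the Bmp1 relative Tll1 of 0.22 ± 0.10 (0.0604).

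The chains of type I collagen moved the other way. Col1a1 and Col1a2 fell by 0.84 (SE 0.12, adjusted p = 5.7e-05) and 1.09 (SE 0.12, 8.23e-06) on the log2 scale, and Col3a1 had a difference of -0.44 ± 0.11 (0.00411). Of 9 fibril-forming chains that could be tested, 2 fell and 3 rose, namely Col5a3 (1.79), Col24a1 (0.86) and Col27a1 (0.89); Col5a1 (0.41 ± 0.09, 0.00111) and Col5a2 (0.37 ± 0.09, 0.00433) did not pass. The summed FPKM of Col1a1, Col1a2 and Col3a1 was 13177 ± 3482 (SD, n = 12) in unwounded skin and 7630 ± 1703 in wounds. Per 1000 FPKM of these 3 chains there were 3.34 ± 0.57 FPKM of P4ha message in unwounded skin and 7.97 ± 1.82 in wounds, and 3.77 ± 0.90 and 10.7 ± 2.7 FPKM of Plod message. Bmp1 went from 4.40 ± 0.56 to 10.1 ± 2.8, Crtap from 4.45 ± 0.95 to 8.73 ± 1.62, and Pcolce with Pcolce2 from 34.0 ± 3.7 to 42.4 ± 3.9. Each of these 5 ratios was higher in the wound of 12 of 12 mice. They share 1 denominator, which was lower on average in wounds, so a ratio can rise without its gene. Mean Bmp1 (56.6 to 74.1 FPKM) and Crtap (56.1 to 64.4) were themselves higher in wounds. Mean Pcolce (342 to 283 FPKM) and Pcolce2 (99.9 to 40.0) were lower, although their ratio rose. The ratios were computed after the separate values were known and carry no test.

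**Figure D5:**
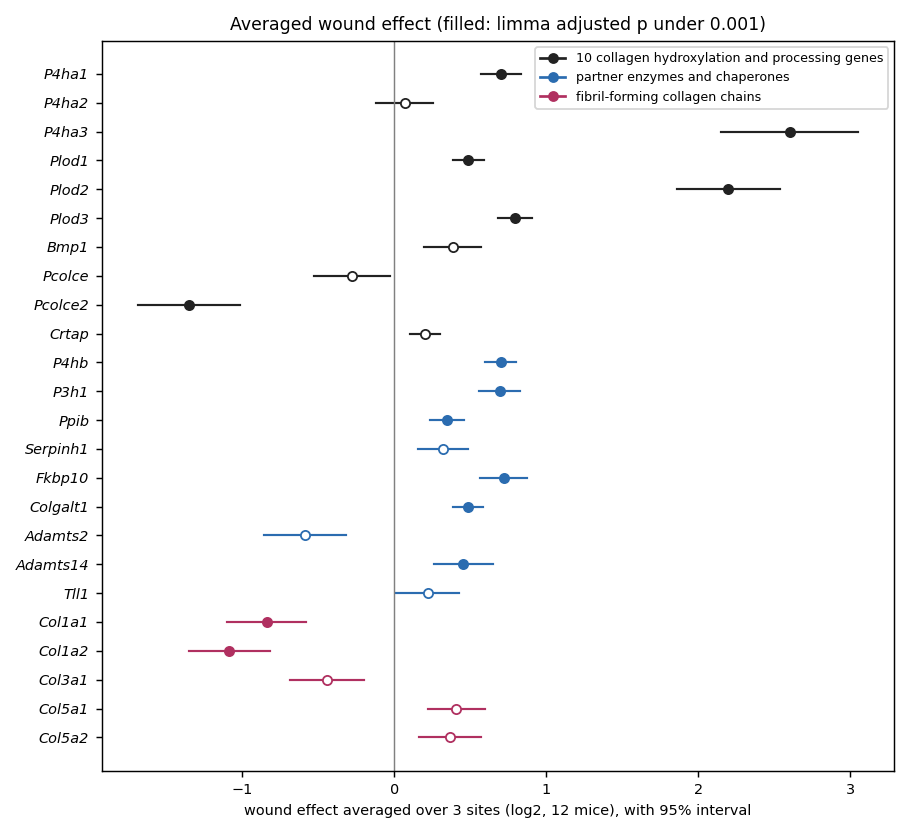
Wound effect averaged over the 3 sites (x axis, log2(FPKM + 0.5), 12 mice, with the 95% interval) for the 10 genes (black), partner enzymes and chaperones (blue) and fibril-forming collagen chains (red); filled points passed an adjusted p of 0.001. Most enzymes lie right of 0, and those of the 10 genes called higher run from 0.49 for Plod1 to 2.60 for P4ha3. Col1a1, Col1a2 and Pcolce2, called lower, lie left of 0, as do Col3a1, Adamts2 and Pcolce, which were not called.

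Markers of several cell types changed with wounding, and their part in the effects above was not tested. The summed fibroblast markers (8 genes) were 2097 to 5242 FPKM over unwounded and 1789 to 3240 FPKM over wound libraries, with Clec3b (-1.29) and Dpt (-1.004) called lower. The macrophage markers (7 genes) went from 470 to 1025 FPKM up to 1119 to 2347, and 6 of 7 were called higher, while the neutrophil markers (6 genes) went from 8.18 to 37.6 FPKM up to 344 to 2388, and 6 of 6 were. Of 6 myofibroblast markers 4 were called higher, Tnc by 4.35, Lrrc15 by 2.91, Cthrc1 by 1.18 and Acta2 by 0.36. The skeletal muscle markers (6 genes) had no gene called and summed to between 440 and 13618 FPKM in unwounded abdomen alone, against 9853 to 19718 FPKM in unwounded back and cheek and 1583 to 5841 FPKM in wounds. On the list of 12 hypoxia response genes, 8 were called higher and Pdk1 lower, and the summed level was 573 to 1293 FPKM in unwounded skin and 858 to 1409.6 FPKM in wounds. Averaged over the sites, all 4 wound keratinocyte, 5 endothelial and 4 regenerating muscle markers were called higher and all 5 adipocyte markers lower, while none of 5 red blood cell markers was called. The neutrophil gene Ly6g was at 0 in every unwounded abdomen and back library.

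The genes closest to each member across the 24 libraries differed in kind. The points share their site and wound state, so Pearson's r is a description. P4ha1 ran with Bcat1 (0.93), Plod3 (0.93) and P3h1 (0.93), and Plod1 with P3h1 (0.90), Ddah1 (0.89) and Ckap4 (0.89). P4ha3 ran with the myeloid genes Sirpb1a (0.93) and Slfn4 (0.93) and the cytokine Csf3 (0.92), Plod2 with Tubb6 (0.96) and the chemokine Ccl4 (0.94), and Plod3 with Grn, Efemp2 and Ctsz (0.95 each). P4ha2 ran with Rcn3 (0.84), Gpx8 (0.83) and Ltc4s (0.77), Bmp1 with Fstl1 (0.89), Col5a2 (0.88) and AW551984 (0.87), and Crtap with En1, Ctsh (0.87 each) and Cdr2l (0.85). Pcolce ran with Mfap2 (0.90), C1qtnf6 (0.89) and Creb3l3 (0.88), and Pcolce2 with Glt8d2 (0.98), Serpina3c (0.97) and Scara5 (0.96). Once the 6 group means were taken out, the closest gene was Rbm43 for P4ha1 (0.81), Fkbp7 for P4ha2 (0.84), Ddx24 for P4ha3 (0.73), Ipo4 for Plod1 (0.86), Trpc6 for Plod2 (0.69) and Il27 for Plod3 (0.76). It was Gpm6b for Bmp1 (0.86), Col1a1 for Pcolce (0.86), Timp2 for Pcolce2 (0.93) and Yipf3 for Crtap (0.83, as was Nucb1).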

How the data were processed

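RNA was extracted from whole skin punches and sequenced as paired 100-base reads. The authors aligned reads with HISAT2 and Bowtie2 (2.2.5) to mm10 and estimated expression with RSEM (1.2.12), per the submitters' processing notes, and deposited FPKM per gene and library, which were used as given. FPKM divides by gene length and library total, so a large rise of a few genes lowers the rest, and the read depth behind a value is not kept. A second deposited table holds the authors' fold changes and adjusted p-values for their comparisons and was not used. No column of per-sample values was left over (0).

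A gene entered a fit where 4 or more of its libraries reached 0.5 FPKM. Tests used limma 3.58.1 (R 4.3.3, trend and robust moderation) on log2(FPKM + 0.5), with Benjamini-Hochberg adjustment over all tested genes. Wound effects used 24 libraries with 12 mouse terms and 1 effect per site; sites were compared within 12 libraries. The pairing comes from the labels, which give the 2 libraries of a site the same mouse number, and the study's paired design; over all genes, the 2 libraries of a mouse deviated from their group means together (mean correlation 0.322, 0.348 and 0.281 in abdomen, back and cheek, lowest -0.0299). The same number at different sites marks different mice. Labels name mice as replicates, so p-values measure the spread between mice of 1 experiment. Exact permutation and sign-flip tests were two-sided. Scripts were tested on simulated data.

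The 10 genes and the other gene lists were chosen with earlier results of these data known. Named in the text were all 10 members, 14 partners and substrates whatever their values, other listed genes where 5 or fewer were counted, and for likeness the 3 genes with the highest correlation over the libraries, of which 1 is not reported here, and the first over deviations from group means. Promoter windows and gene coordinates are RefSeq (GRCm38.p6, the same build as mm10). Alternatives tried were other pseudocounts, filters, scalings, moderation, mouse terms, thresholds and leaving out each mouse.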

Additional observations from a re-analysis of the deposited data

Results flagged for a closer look

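In 2 of the 60 groups of 4 libraries tested (10 genes in 6 groups), 1 library stood further from the others than Dixon's 95% limit allows; chance alone flags about 1 group in 20. Plod3 in the abdomen wound of mouse 2 was 20.94 FPKM, while the other 3 abdomen wounds lay at 30.4 to 31.5 FPKM. The same wound also had the lowest P4ha3 (0.50 FPKM), P4ha1 (20.2 FPKM) and Plod2 (3.56 FPKM) of the 4 abdomen wounds. It was lowest too in P4ha2 (19.8 FPKM), Plod1 (29.8 FPKM), Pcolce (235 FPKM) and Crtap (57.3 FPKM), and highest in Pcolce2 (63.6 FPKM). What part this library has in the abdomen results was not tested beyond leaving the mouse out. Bmp1 in the abdomen wound of mouse 3 was 51.88 FPKM, with the other 3 at 63.5 to 65.9 FPKM.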

How the results depend on the processing

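The averaged wound effect was the steadiest result: P4ha1, P4ha3, Plod1, Plod2, Plod3 and Pcolce2 were called in all 12 fits that left out a mouse (6 to 7 members) and in all 9 other alternatives at the same threshold (6 to 8 members). No value that was called changed its sign under any alternative. The test of different wound effects called 0 members throughout.

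Counts by site moved more. In abdomen (3 called) the count was 1 with no replicate block, 1 in the 8 libraries of the site, 6 at a threshold of 0.05 and 0 to 3 when a mouse was left out. In back (6 called) it was 4 to 6 without a mouse and 9 at 0.05. In cheek (3 called) it was 1 in the 8 libraries, 8 at 0.05 and 2 to 4 without a mouse. Between cheek and back skin (0 called) it was 1 with median-ratio scaling, 1 with quantile normalization and 1 with 24 libraries and a random mouse effect, Crtap each time. Between back and abdomen wounds (2 called) it was 0 with no filter, 0 with a common library sum, 0 without trend or robust moderation, 0 at 0.001, 0 with the mouse number as a replicate block, 1 with median-ratio scaling, 1 with quantile normalization, 1 with 24 libraries and a random mouse effect, and 0 to 2 without a mouse. Between cheek and back wounds (3 called) it was 1 with quantile normalization, 0 at 0.001, 2 with the replicate block (Crtap and Pcolce, so that P4ha1 and P4ha2 lost their calls at adjusted p = 0.0651 and 0.0646), and 0 to 4 without a mouse. Other than in these, the block moved no count of members by over 1.5 times. The cause of these moves was not tested; fits with fewer libraries have fewer degrees of freedom by construction. Values near 0 FPKM, as for P4ha3 and Plod2 in unwounded skin, rest on few reads of unknown number.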
